A study of Mus musculus with 40 samples.

Results

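Igf2, H19 and Rasgrf1 are imprinted mouse genes, and they were followed here through the repeat copies that lie in and around them. The members are the copies of the repeat table inside mm10 chr7:142570000-142670000, which holds H19 and Igf2, and chr9:89905000-90030000, which holds Rasgrf1. They number 87 of the 835636 copies in the table, 7 in the H19 and Igf2 window and 80 in the Rasgrf1 window. The windows were selected on measured values: the RLTR20A4 copy of Igf2 was picked for its rise from N2.1 to N2.3, and the MER20 copy of Rasgrf1 for its fall from F2 to N2.1. Those contrasts are therefore given as values with no test.

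The RNA, selected for poly(A), came from the melanoma line YUMM1.7, which is of C57BL/6 origin, and from cells of tumours that it formed during serial passaging through mice. Tumours were dissociated and their cells were grown in culture for 1 to 3 passages before extraction, so the RNA is that of cultured cells. The 40 libraries form 11 groups. The line itself, YUMM1.7 cells, has 3 libraries; the passages F0 and F1 have 4 each, F2 and N2.1 have 5 each, and N2.2 and N2.3 have 3 each. Balb/c-1 has 4 libraries, while Balb/c-2, CBA and Balb/c-2 rep2 have 3 each. All groups carry the label of the same cell line and of melanoma, and no agent or allele is named for any of them. Balb/c and CBA are inbred strains of mice. The meaning of N2 is not stated in the labels. Each letter names a tumour, and Balb/c-2 rep2 holds repeat libraries of the Balb/c-2 tumours. The YUMM1.7 cells are cultures of 1 line and each passage was made once, so p-values measure the spread between tumours or cultures of 1 passage series.

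Imprinted genes are expressed mainly from the copy inherited from 1 parent, according to DNA methylation laid down in the germ line. Igf2 encodes insulin-like growth factor 2, a growth factor of the fetus that is made from the paternal copy and is low in most adult tissues. H19 is a long non-coding RNA made from the maternal copy of the same domain, and CTCF bound to the unmethylated control region between them keeps Igf2 off on the maternal chromosome. Rasgrf1 encodes an exchange factor that loads Ras with GTP, and in the mouse it is made from the paternal copy, foremost in brain.

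H19 (7:142575529-142578143, minus strand, ENSMUSG00000000031.16) holds 0 copies of the table, and its RNA is not analysed here. Igf2 (7:142650766-142666816, minus strand, ENSMUSG00000048583.16) holds 1 copy, an RLTR20A4 of 332 bases at 7:142652668-142652999. RLTR20A4 is the long terminal repeat of an endogenous retrovirus family. The copy lies within the last exon of Igf2, exon 4 of transcripts Igf2-201, Igf2-204 and Igf2-205, in the 3′ untranslated region, and also in the annotated readthrough gene Gm49394. Of the other copies in that window, 5 lie in or at Gm33148, a long non-coding RNA gene between H19 and Igf2. Rasgrf1 (9:89909908-90026977, plus strand, ENSMUSG00000032356.12) holds 77 copies, and 3 more lie in its window outside the gene. Its MER20, a fossil DNA transposon of 165 bases at 9:90017589-90017753, and an ID_B1, a short interspersed element of 197 bases at 9:90019290-90019486, share intron 24 of transcript Rasgrf1-202, which has 27 exons. Reads of a copy inside a gene can stem from the gene's own message or its unspliced precursor, and the sources used here do not say whether strand was used in counting. They are thus read here as signal at the gene's position and not as activity of the repeat.

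The bases before a start site are shown for both genes with signal, as RefSeq gives them on GRCm38.p6, with each CG in capitals. Neither stretch is the control region between H19 and Igf2 described above. RefSeq lists 4 start sites for Igf2, and the one closest to the RLTR20A4 copy is shown, chr7:142657497-142657746 on the minus strand. The Rasgrf1 stretch is chr9:89909525-89909774 on the plus strand. H19 was not matched in that table.
Igf2: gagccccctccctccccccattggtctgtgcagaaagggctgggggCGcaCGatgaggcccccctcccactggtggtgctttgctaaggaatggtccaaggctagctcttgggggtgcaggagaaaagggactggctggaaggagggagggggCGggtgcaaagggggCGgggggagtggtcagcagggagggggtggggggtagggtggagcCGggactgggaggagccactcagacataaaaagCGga
Rasgrf1: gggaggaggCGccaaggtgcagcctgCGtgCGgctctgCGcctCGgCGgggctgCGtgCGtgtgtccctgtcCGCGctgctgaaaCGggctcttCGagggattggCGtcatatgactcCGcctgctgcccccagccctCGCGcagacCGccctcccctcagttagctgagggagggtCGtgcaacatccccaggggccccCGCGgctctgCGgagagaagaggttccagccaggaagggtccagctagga
The 4 stretches before the Igf2 start sites hold 1, 10, 22 and 6 CG in the order of transcription, the last being the one shown, and the Rasgrf1 stretch holds 21. Among 32851 such promoters of 250 bases the median was 6 CG (the letters CG, which read the same on both strands), and 92.13% held at least 1. As many CG as in the Igf2 stretch shown were found in 50.35% of promoters, and as many as in the Rasgrf1 stretch in 16.35%. Methylation was not measured in this table.

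The value of a copy is called signal here: whole reads divided by the authors' factor for that library, so that 1 read was worth 0.659 to 1.51. Libraries held 1280522 to 2976730 reads over all copies. Of the 87 copies, 3 had a mean signal of at least 5 over the 40 libraries and were tested: the Igf2 copy, MER20 and ID_B1. The other 84 had means of 0.0217 to 4.59 and are given by counts and sums. A value of 0 allows up to 3 reads, a signal of 1.98 to 4.54 depending on the library, for counting error alone. Melanocytic markers were low: 13 of 15 hold a copy, and their summed signal lay between 4.70 and 30.3 per library. Mitf, the master regulator of melanocytes, reached 26.9 and was at 0 in 1 library, and Pmel, a melanosome protein, had a mean of 2.14 and was at 0 in 9 libraries, while Tyr was at 0 in 38 and Dct in 39. Fibroblast markers, 11 of 12 with a copy, summed to 771 to 3719. That sum was carried by Pdgfrb, Pdgfra and Postn, with means of 1004, 607 and 247, while Dcn was at 0 in 32 libraries and Thy1 in 31. Markers are read here through repeat copies alone. Tumour C of N2.3 stood apart in muscle genes, with values given beside Igf2.

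Igf2 signal was near 0 from the cultured line to F2, came up in the N2 series and was highest in N2.3. In bulk RNA, fewer cells that express a gene and less RNA per cell cannot be told apart. In YUMM1.7 cells the Igf2 copy had 0, 0 and 2.90. The F0 tumours had 0, 0, 1.02 and 2.90, and those of F1 had 0, 1.12, 0 and 4.70. The F2 libraries had 0.911, 0, 0, 2.87 and 0. In all 4 groups the ranges overlapped, and the values are of the size that a count of 0 allows or little more. Steps between these groups were within the spread: F0 against YUMM1.7 cells differed by 0.09 on the log2(signal + 1) scale (SE 1.06, limma adjusted p = 0.993), F1 against F0 by 0.16 (SE 0.98, limma adjusted p = 0.958) and F2 against F1 by -0.32 (SE 0.93, limma adjusted p = 0.964). Over all tested copies, 0.00% were called in F0 against YUMM1.7 cells, 0.268% in F1 against F0 and 0.00% in F2 against F1. The unadjusted p was under 0.05 for 2854 copies in the first and 2596 in the last of these; edgeR called 1 copy in each, and DESeq2 called 6 and 11.

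In the N2 series the N2.1 libraries had 16.8, 17.4, 0, 7.95 and 0 at the Igf2 copy. The N2.2 libraries had 13.8, 125 and 15.7. The N2.3 libraries had 333, 231 and 17104. N2.1 and N2.2 overlapped between 13.8 and 17.4, while the lowest N2.3 library was above the highest of N2.2. The mean was 8.43 ± 8.55 (SD, n = 5) in N2.1, 51.4 ± 63.5 (SD, n = 3) in N2.2 and 5889 ± 9713 (SD, n = 3) in N2.3, a mean that tumour C sets. In that library the Igf2 copy alone took 0.901% of the signal of all 835636 copies.

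N2.2 was not used to pick the Igf2 copy, and all 3 of its libraries were above all 4 of F0. The difference was 4.23 on the log2(signal + 1) scale (SE 1.06, limma adjusted p = 0.0088), against 6.63% of tested copies called in that comparison. Without tumour B of N2.2 it was 3.23 (limma adjusted p = 0.112), so the call rests on that library. The comparison was added after the values were seen, and the copy passed the signal filter through the N2 groups. The call thus describes values already known and lends no support of its own. The steps next to the choice share its libraries: N2.1 against F2 differed by 1.73 (limma adjusted p = 0.216), N2.2 against N2.1 by 2.67 (limma adjusted p = 0.533) and N2.3 against N2.2 by 5.13 (limma adjusted p = 0.0781).

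In the groups labelled by other strains the Igf2 copy was low again. The Balb/c-1 libraries had 12.0, 0, 3.84 and 10.4, and the Balb/c-2 libraries 3.62, 1.12 and 3.44. Their repeat libraries, Balb/c-2 rep2, had 5.32, 5.53 and 6.05. CBA had 3.14, 2.17 and 5.86. All of these lay below the lowest N2.3 library, and Balb/c-1 overlapped with YUMM1.7 cells, F0, F1 and F2. Balb/c-1 differed from N2.3 by -7.73 (limma adjusted p = 3.79e-05), a step that reuses the N2.3 libraries of the choice. Against F0 the differences were 1.63 for Balb/c-1 (SE 0.98, limma adjusted p = 0.267), 1.07 for Balb/c-2 (SE 1.06, limma adjusted p = 0.516) and 1.42 for CBA (SE 1.06, limma adjusted p = 0.545). Those comparisons called 16.5%, 19.5% and 5.82% of copies, and all reuse the F0 libraries. Balb/c-2 against Balb/c-1 gave -0.56 (SE 1.06, limma adjusted p = 0.903) with 0.00% of copies called; 3520 copies had an unadjusted p under 0.05, edgeR called 0 and DESeq2 28. The repeat libraries differed from the originals by 0.91 (SE 1.13, limma adjusted p = 0.95; 0.232% called), and CBA from the repeat libraries by -0.56 (SE 1.13, limma adjusted p = 0.815; 5.93% called).

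Ordered by mean, N2.3 was followed by N2.2, N2.1, Balb/c-1, Balb/c-2 rep2, CBA, Balb/c-2, F1, F0, YUMM1.7 cells and F2. Of neighbours in this order, only N2.3 and N2.2 did not overlap. The summed signal of the rest of the RLTR20A4 family did not follow the Igf2 copy. The other 1082 copies summed to 5323 to 10620 per library, and to 5597 in tumour C of N2.3. Such a sum does not show the course of single copies.

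**Figure D1:**
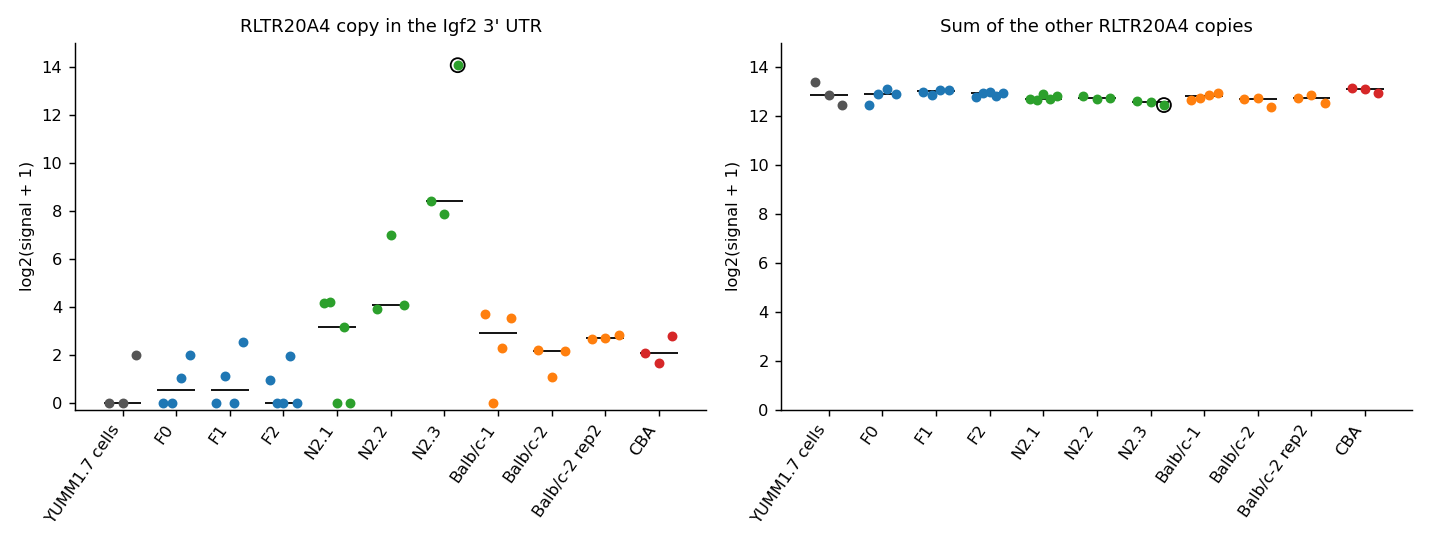
Signal of the Igf2 RLTR20A4 copy (left) and the sum of the other 1082 RLTR20A4 copies (right) in each of the 40 libraries by group, as log2(signal + 1); each point is a library, the line is the group median, and the ring marks tumour C of N2.3. The Igf2 copy reached 17104 in the ringed library and 231 and 333 in the other N2.3 libraries, while the family sum stayed between 5323 and 10620.

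Tumour C of N2.3 stood apart from all other libraries in genes of skeletal muscle, a cell type in which Igf2 is also made. Of 10 muscle markers 6 hold a copy inside the gene, and their summed signal was 426 in that library against 1.94 to 33.8 in the other 39. Des, the muscle intermediate filament desmin, had 87.8 there and at most 1.77 elsewhere. Myh3, the embryonic myosin heavy chain, had 115 against at most 4.54. Cdh15, the muscle cadherin, had 24.2 against at most 0.883, and Tnnt3, a fast-muscle troponin encoded near Igf2, had 176 against at most 32.8. The part of these muscle genes in the Igf2 value was not tested. In the N2.3 tumours A and B, Des and Cdh15 were at 0, Myh3 was at 0 and 1.58 and Tnnt3 at 17.8 and 27.6. Their Igf2 signal of 333 and 231 was above every library outside N2.3.

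Plagl1 and Gm33148 were also higher in that library than in any other. Plagl1, an imprinted zinc finger gene whose protein is known to act on the Igf2 domain, had 356 over its span against at most 32.6 in any other library. Gm33148, between H19 and Igf2, had 12.1 over 4 of its 5 copies, while no other library passed 1.11. Grb10, the imprinted adaptor that damps insulin and IGF receptor signalling, had 43.2 in tumour C and 0 in tumours A and B, and up to 107 in N2.1. Other imprinted genes were lower in tumour C: Casd1 had 0 there and 44.9 and 24.5 in tumours A and B, and the exon sum of Pon2 was 139 there and 359 and 370 in A and B. These genes were singled out after their values were seen.

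**Figure D2:**
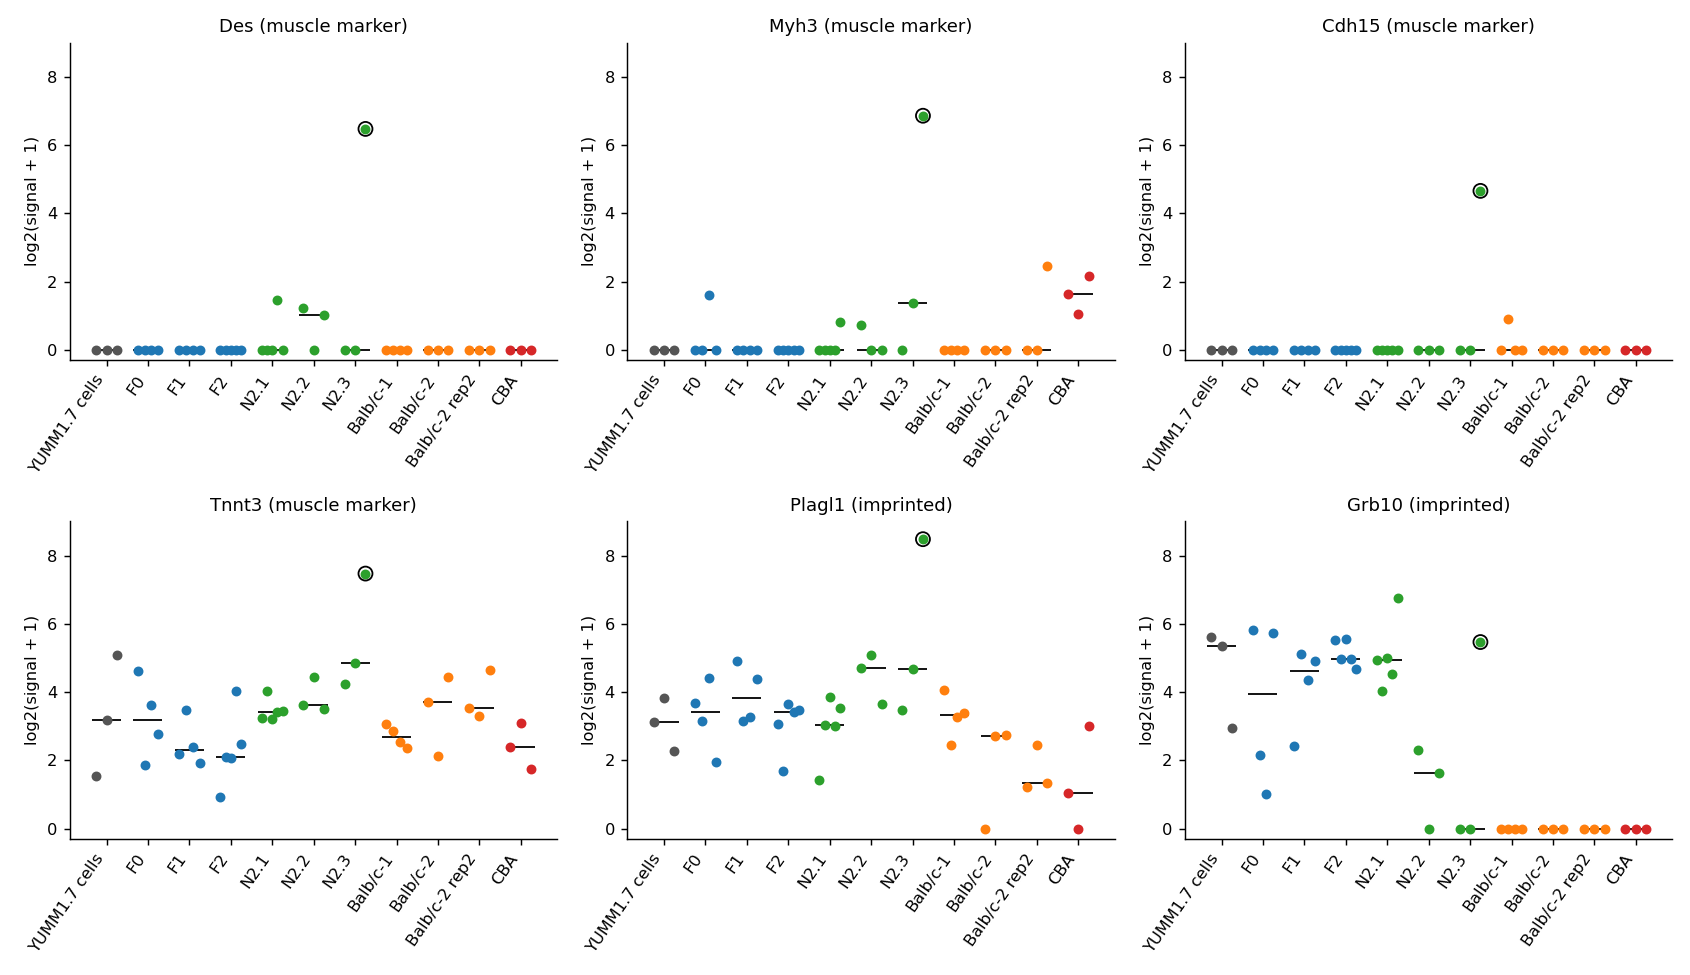
Summed signal of the repeat copies inside Des, Myh3, Cdh15, Tnnt3, Plagl1 and Grb10 in each library by group, as log2(signal + 1); points are libraries, lines are group medians, and the ring marks tumour C of N2.3. The ringed library is the highest in Des, Myh3, Cdh15, Tnnt3 and Plagl1, and Grb10 is at 0 in every Balb/c and CBA library.

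Rasgrf1 went the other way. It was among the clear signals of the cultured line, F0 and F2, was lower in F1, nearly gone in N2.1 and at or next to 0 in all later groups. At MER20 the YUMM1.7 cells had 81.3, 90.9 and 68.6, and F0 had 39.3, 187, 133 and 49.3. F1 had 9.66, 10.1, 22.5 and 5.64, and F2 had 37.4, 45.9, 53.7, 28.7 and 131. The F1 range lay below those of the 3 other groups and overlapped with none. In N2.1, tumour A had 1.68 and tumours B to E had 0, and MER20 was at 0 in all 19 libraries of N2.2, N2.3, the Balb/c groups and CBA.

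ID_B1, in the same intron, took the same course at higher signal. The YUMM1.7 cells had 156, 109 and 110, and F0 had 72.2, 369, 269 and 108. F1 had 1.76, 37.1, 50.3 and 4.70, and F2 had 62.0, 83.1, 78.0, 32.5 and 194. F1 lay wholly below F0, and its upper libraries overlapped with the lowest of F2. N2.1 had 10.1, 3.07, 1.04, 1.77 and 0.752, the last being a single read. After N2.1, only tumour C of N2.2 had any ID_B1 signal, 1.04.

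The sum of all 77 copies inside Rasgrf1 was 532, 292 and 335 in YUMM1.7 cells and 203, 844, 786 and 319 in F0. It was 22.0, 69.8, 142 and 25.4 in F1 and 147, 234, 286, 86.1 and 491 in F2. F1 again lay below F0 without overlap, and its highest tumour lay between the lowest F2 tumours. In N2.1 it was 33.6, 11.3, 2.08, 4.42 and 3.01, and in N2.2 and later no library passed 1.51. The order of group means was F0, YUMM1.7 cells, F2, F1 and N2.1 for MER20, ID_B1 and the sum, and the first 3 of these groups overlapped.

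F1 against F0 did not enter the choice of MER20. MER20 fell from a mean of 102 ± 70.6 (SD, n = 4) to 12.0 ± 7.28 (SD, n = 4), a change of -2.86 on the log2(signal + 1) scale (SE 0.50, limma adjusted p = 0.00761). ID_B1 fell from 204 ± 139 to 23.5 ± 24.01 (SD, n = 4 each), a change of -3.67 on that scale (SE 0.64, limma adjusted p = 0.00761). The sum over the gene fell from 538 ± 324 to 64.8 ± 56.0 (SD, n = 4 each), a change of -3.20 (SE 0.61, limma adjusted p = 0.00849), where 2.76% of gene sums were called. Without MER20 the sum changed by -3.30 (limma adjusted p = 0.00918), and without both copies of intron 24 by -3.10 (limma adjusted p = 0.0139), so the fall was also measured in the remaining copies. ID_B1 did not pass with edgeR (-2.91, adjusted p = 0.0508) or DESeq2 (-2.92, adjusted p = 0.0682).

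The share of a library's signal that lay in introns moved with this step. It was 23.6% ± 1.86 in F0 and 17.4% ± 2.95 in F1 (SD, n = 4 each). With that share as a covariate the changes were -2.72 for MER20, -3.61 for ID_B1 and -2.92 for the sum, and none passed (limma adjusted p = 0.203, 0.176 and 0.177). F2 had an intron share of 14.3% to 24.4%. Its tumour E, with a share of 24.4%, had 131 at MER20. The other F2 tumours, with shares of 14.3% to 22.4%, had 28.7 to 53.7. Whether the intron share is a cause of the fall was not tested. Of the 350 gene sums called in F1 against F0, 305 were lower on the deposited scale, while with TMM scaling 106 of 289 were lower; MER20, ID_B1 and the Rasgrf1 sum fell under both. TMM moved the median of all tested copies by 0.125 in that comparison, and MER20 changed by -2.73 with it.

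Steps that share the F2 libraries of the choice gave 2.16 for MER20 (limma adjusted p = 0.194), 2.54 for ID_B1 (limma adjusted p = 0.31) and 2.09 for the sum (limma adjusted p = 0.406) in F2 against F1. F0 against YUMM1.7 cells gave 0.07, 0.44 and 0.29 (limma adjusted p = 0.987, 0.894 and 0.887), with SE of 0.54, 0.69 and 0.66.

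The passages after N2.1 were not used to choose MER20, but they follow N2.1 in the order of the labels, and whether their cells stem from the N2.1 tumours is not stated in the labels. Against F0, MER20 differed by -6.40 on the log2(signal + 1) scale in N2.2, Balb/c-1, Balb/c-2 and CBA alike, because all of their libraries were at 0 (limma adjusted p = 2.65e-11, 2.44e-12, 2.27e-11 and 4.64e-11). As a ratio of the F0 mean to 3 reads per library, MER20 was at least 32.6-fold lower in N2.2 and at least 40.2-fold lower in N2.3. It was at least 29.1-fold lower in CBA, and for Balb/c-1, Balb/c-2 and the latter's repeat libraries these bounds were 32.7-fold, 28.2-fold and 22.5-fold. ID_B1 was at least 80.4-fold lower in N2.3 and at least 65.5-fold in Balb/c-1. The Rasgrf1 sum was at 0 in all Balb/c-2 libraries, original and repeat, at least 148-fold and 119-fold below F0. On the log2 scale the sum differed from F0 by -8.49 in N2.2 (limma adjusted p = 7.76e-12) and by -8.46 in CBA (limma adjusted p = 2.08e-11), where 11.1% and 10.3% of gene sums were called. For Balb/c-1 and Balb/c-2 the values were -8.61 and -8.83 (limma adjusted p = 6.01e-13 and 1.93e-12), with 22.1% and 27.9% called. These comparisons all reuse the F0 libraries and were added after the values were seen. MER20 was picked for its fall to N2.1 and passed the signal filter through the earlier groups. The p-values against F0 thus describe values already known and lend no support of their own.

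Along Rasgrf1, MER20 and ID_B1 stood far above the other copies for their length. They make up 362 of 26964 copy bases, 1.34%, and held 57.0% of the Rasgrf1 sum in F0, 53.1% in the cultured line, 59.99% in F2, 54.7% in F1 and 33.8% in N2.1. Per kb of copy their mean signal was 847 in F0, 567 in the cultured line, 412 in F2, 97.9 in F1 and 10.2 in N2.1. The other copies had 8.70, 6.81, 3.74, 1.11 and 0.270 per kb in the same order. MER20 and ID_B1 sit 108 and 109 kb from the start of the gene, near its 3′ end.

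The 75 other Rasgrf1 copies lie in 17 introns or next to exons, and each had a mean under 5. All 75 had signal in some library from YUMM1.7 cells to F2, 21 had signal in N2.1 and 3 in N2.2 or later, where the highest value was 1.51. From F0 to F1, 57 had a lower mean, 4 a higher mean and 14 the same mean. Outside intron 24, 29 to 49 copies had signal per library of F0 and 33 to 44 per library of the cultured line. In F2 the number was 15 to 45, in F1 5 to 28 and in N2.1 1 to 14. Most of it lay in a few introns. In F0 the copies of introns 2 and 5 had mean sums of 89.0 and 84.9, those of introns 1 and 14 had 26.8 and 11.1, and no other intron outside intron 24 passed 8.66. In F1 introns 2, 5, 1 and 14 had 9.01, 6.90, 7.41 and 3.66, each lower than in F0.

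Among them, the BC1_Mm copy at 9:89915833-89915916 overlaps the last exon of the short transcript Rasgrf1-203 by 15 bases and had the highest mean, 4.59. The cultured line had 51.3, 10.1 and 6.76, and the F0 tumours had 1.83, 32.1, 21.4 and 12.6. The F1 tumours had 2.63, 2.25, 12.8 and 0, and those of F2 had 2.73, 5.47, 11.6, 0 and 9.09. Those ranges overlapped. In N2.1 only tumour B had signal, 1.02, and every later library was at 0.

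**Figure D3:**
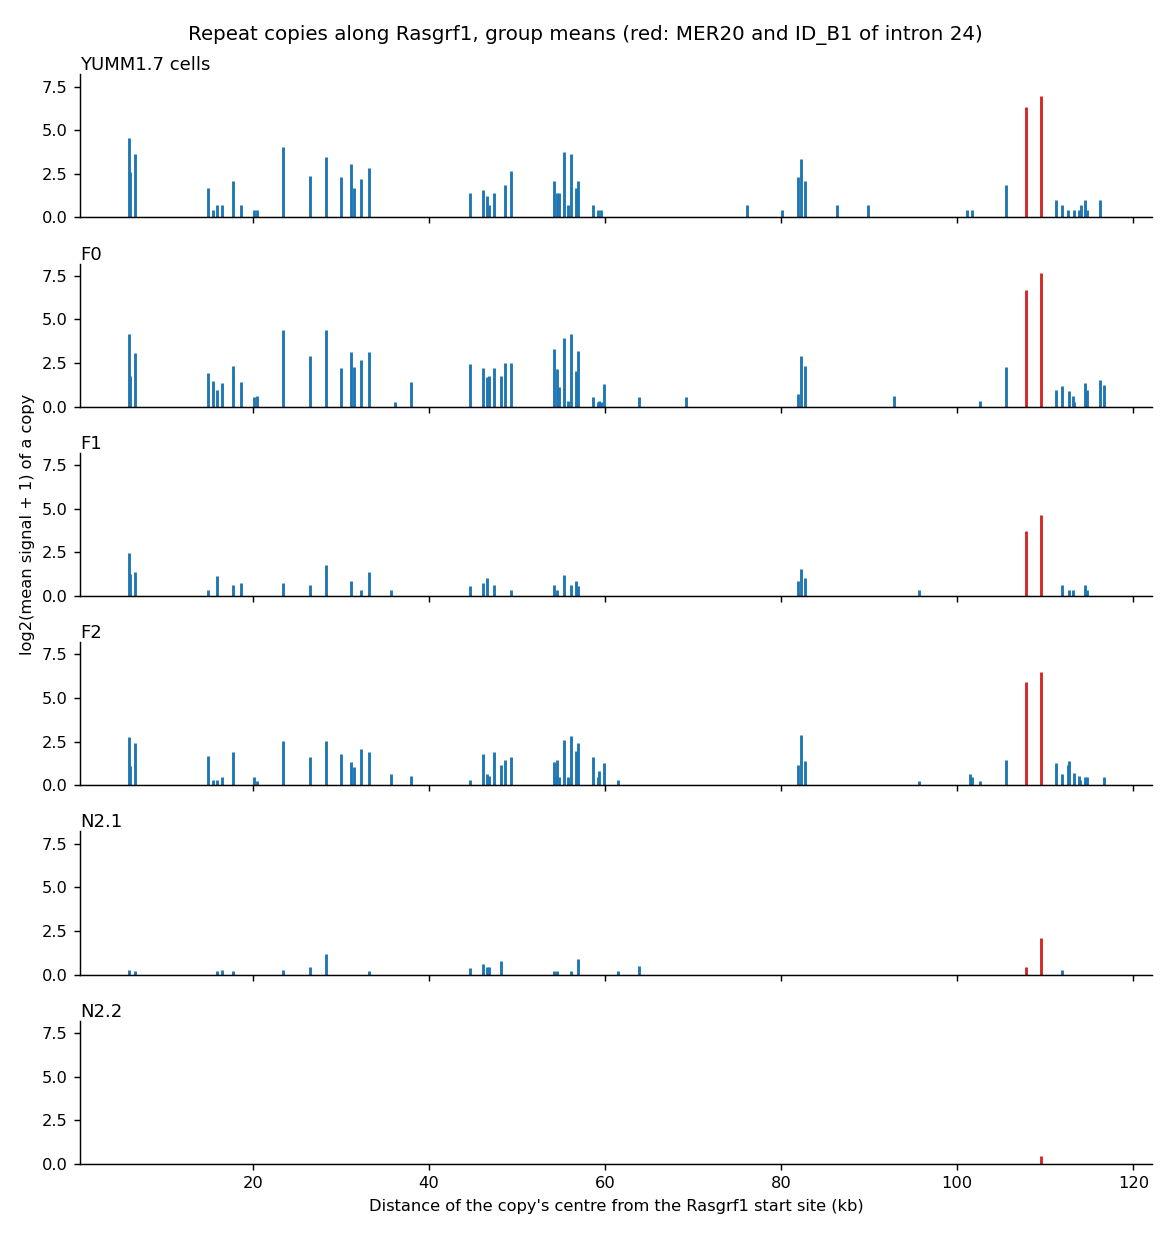
Mean signal of each copy inside Rasgrf1, as log2(mean + 1), against its distance in kb from the start of the gene, in YUMM1.7 cells, F0, F1, F2, N2.1 and N2.2; red marks MER20 and ID_B1. The red copies near 108 and 109 kb stand above the others from YUMM1.7 cells to F2, and N2.2 is almost empty.

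Ctsh, Morf4l1 and Mthfs, close to Rasgrf1, had signal in every library, those without Rasgrf1 signal included. Ctsh, a lysosomal protease, had a summed signal of 28.0 to 40.4 in YUMM1.7 cells, 29.5 to 145 in F2, 135 to 235 in N2.1 and 57.6 to 70.3 in CBA. Morf4l1, a chromatin protein, lay between 24.05 and 129 in all 40 libraries, and Mthfs, an enzyme of folate metabolism, between 5.64 and 25.8. Tmed3, a cargo receptor of the secretory pathway, lay between 1.11 and 24.4. Adamts7, a secreted metalloprotease, reached 24.3 in N2.2 and was at 0 in 1 Balb/c-2 library and in 1 of the repeat libraries. By gene sums, Ctsh rose from F2 to N2.1 by 1.21 (SE 0.37, limma adjusted p = 0.0173), with overlap. At that step 2972 of 12669 gene sums were called, 2487 of them higher. Morf4l1 was higher in N2.2 than in F0 by 1.02 (SE 0.34, limma adjusted p = 0.0429), where 11.1% of gene sums were called. Of the 9 listed neighbours 4 could be tested by exon sums. Tmed3 rose in CBA against Balb/c-2 rep2, where its exon sum was 12.6, 10.9 and 19.9 against 17.3, 1.11 and 1.51, the last values being 1 read each, with overlap, by 1.71 on the log2(signal + 1) scale (SE 0.56, limma adjusted p = 0.0419). Around H19 and Igf2, Ctsd (10.7 to 58.6) and Mrpl23 (5.86 to 26.2) were measured in every library. By exon sums, 2 of 15 listed neighbours were tested, and neither was called by limma at the steps of the labels' order. The gene sum of Tnnt3 differed by -2.81 in Balb/c-1 against N2.3 (SE 0.73, limma adjusted p = 0.0159), and tumour C of N2.3 had 176. In that comparison 811 of 12669 gene sums were called. Tspan32, a tetraspanin of that domain, was called against F0 by its gene sum, which was 0.914 to 1.73 in F0 and 7.95 to 22.1 in Balb/c-1. The groups did not overlap, and the difference was 2.97 (SE 0.64, limma adjusted p = 0.000839). In N2.2 and Balb/c-2 it was 2.25 and 1.79 (limma adjusted p = 0.0294 and 0.0485), calls lost with TMM scaling (adjusted p = 0.0533 and 0.0522).

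**Figure D4:**
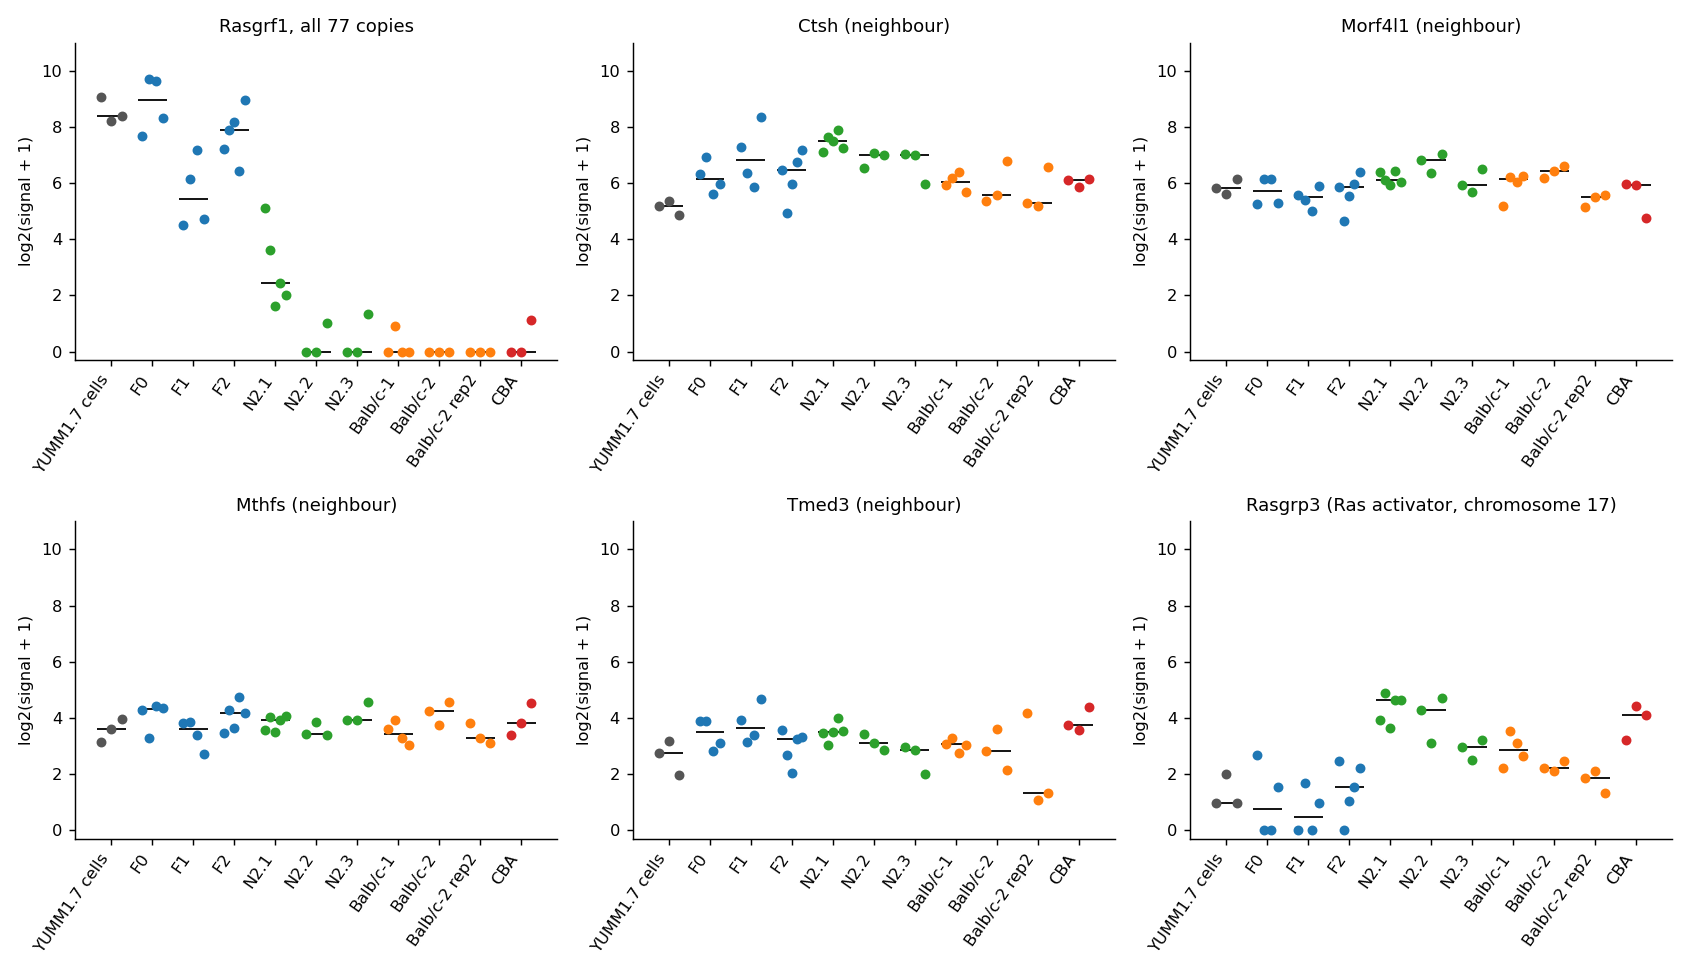
Summed signal of the copies inside Rasgrf1, its neighbours Ctsh, Morf4l1, Mthfs and Tmed3, and Rasgrp3 in each library by group, as log2(signal + 1); points are libraries and lines group medians. The Rasgrf1 sum drops from 86.1 to 491 in F2 to 2.08 to 33.6 in N2.1, while Ctsh, Morf4l1 and Mthfs have 5.64 or more in every library.

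The copies whose pattern over the 40 libraries was most like the members were found by Pearson correlation of log2(signal + 1) among tested copies outside both windows, 1 per host gene. These are descriptions over libraries that share groups. For MER20 they were a B4 in Nrk (r = 0.949), a B1_Mus2 in Sox7 (r = 0.949), a BC1_Mm in Cacna1a (r = 0.925), a URR1A in Sdk1 (r = 0.922) and a B1F in Pard3b (r = 0.922). MER20 and ID_B1 had r = 0.974. For the Igf2 copy likeness was lower: a MER33 in Mroh2a (r = 0.771, rho = 0.600), an intergenic L1Lx_II at chr4:50124270-50124742 (r = 0.770, rho = 0.807), a MER53 in the 3′ untranslated region of Chrnd (r = 0.743, rho = 0.534), an intergenic L1Lx_IV at chr4:50123673-50124237 (r = 0.739, rho = 0.816) and an L1_Rod in Gm42595 (r = 0.734, rho = 0.604). Without tumour C of N2.3, 2 of these 5 stayed among the top 5, while 4 of 5 stayed for MER20 without its highest library. The Igf2 copy and MER20 had r = -0.497 over the same libraries.

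Other imprinted genes were read through their exon copies. Of 71 listed genes 34 hold an exon copy and 17 had enough signal to test. Between F2 and N2.1, the step at which MER20 was chosen, 5 of the 17 were called, 2 higher and 3 lower, against 15.1% of all gene exon sums, and the list's median change was 0.03 against 0.12 for all. Rian, a non-coding RNA of the Dlk1 domain, fell from 92.0, 10.9, 4.22, 255 and 32.7 in F2 to 0, 1.02, 0, 0 and 0 in N2.1, by 4.91 on the log2 scale (SE 0.98, limma adjusted p = 0.000622), and the groups did not overlap. Rian also varied between tumours of other groups, with 0, 0, 0 and 36.7 in F0 and 0, 11.3, 46.0 and 16.0 in F1. Tumour C of N2.3 had 36.3. Tnfrsf23, a decoy receptor of the domain next to Igf2, fell by 1.86 (SE 0.43, limma adjusted p = 0.00306), and Airn, the antisense RNA of Igf2r, by 0.87 (SE 0.23, limma adjusted p = 0.00989), a call lost with copies wholly inside exons (0.43, adjusted p = 0.504) and with all copies of the gene (-0.21, adjusted p = 0.539). Nnat, which encodes neuronatin, rose by 1.41 (SE 0.45, limma adjusted p = 0.0321) and Ube3a, a ubiquitin ligase, by 0.44 (SE 0.12, limma adjusted p = 0.00892), a call lost with TMM scaling (adjusted p = 0.0561).

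By exon sums, the other steps of the labels' order gave 1 call in the imprinted list. It was Pon2, a paraoxonase, with a difference of 0.85 in Balb/c-1 against N2.3 (SE 0.21, limma adjusted p = 0.011), where 7.31% of gene exon sums were called. Without tumour C of N2.3 it was 0.39 (limma adjusted p = 0.218), so the call rests on that library. None of the 17 was called in F0 against YUMM1.7 cells (0.0131% of all), F1 against F0 (0.773%), F2 against F1 (0.00%, with 723 exon sums at an unadjusted p under 0.05), N2.2 against N2.1 (0.485%), N2.3 against N2.2 (0.0524%) or N2.3 against N2.1 (3.89%). Nor was any called by limma in Balb/c-2 against Balb/c-1 (0.0262%), Balb/c-2 rep2 against Balb/c-2 (0.472%) or CBA against Balb/c-2 rep2 (12.5%). Sums over the gene span, which 33 of the listed genes had in testable amounts, also gave calls at the steps of the labels' order. Among them was Grb10 in N2.3 against N2.1 (-3.23, limma adjusted p = 0.0451). In N2.1 against F2, Blcap, Igf2r, Nnat, Pon3, Sfmbt2, Snhg14 and Ube3a were higher, and Rian and Tnfrsf23 lower. At that step 2972 of 12669 gene sums were called, 2487 of them higher. In Balb/c-1 against N2.3, Atp10a and Pon2 were higher and H13 and Tnfrsf23 lower, where 811 of 12669 gene sums were called. In CBA against Balb/c-2 rep2, Gatm, Nap1l4, Pon3 and Sgce were higher, where 1309 of 1782 called gene sums were higher. Against F0 these sums gave 4 higher and 0 lower in N2.2, 5 and 4 in Balb/c-1, 6 and 6 in Balb/c-2, and 3 and 3 in CBA. Of all gene sums, 11.1%, 22.1%, 27.9% and 10.3% were called in the same order. The list's median differences there were 0.13, -0.02, -0.05 and -0.09, against 0.18, -0.06, -0.04 and 0.13 for all gene sums. Snhg14 and Ube3a count separately among these calls, with nearly equal differences: 0.39 and 0.40 in Balb/c-1, and 0.59 and 0.61 in Balb/c-2.

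In the IGF list, 23 of 35 genes hold an exon copy and 14 were tested, among them 2 receptors. Igf1r, the receptor through which IGF2 drives growth, had exon sums of 18.2 to 30.0 in F2, 23.9 to 75.1 in N2.1 and 21.2 to 38.7 in N2.3. Over the gene span it was 179 to 279 in F0, 91.2 to 141 in Balb/c-1 and 79.7 to 110 in Balb/c-2, and neither Balb/c group overlapped with F0. The differences from F0 were -1.01 (SE 0.22, limma adjusted p = 0.00107) and -1.27 (SE 0.24, limma adjusted p = 0.000143). Shc1, an adaptor of the receptors, fell from F2 to N2.1 by 0.79 (SE 0.15, limma adjusted p = 0.00045). Uhrf1, which keeps DNA methylation through replication, rose there from 36.3 to 116 to 141 to 197, by 1.42 (SE 0.31, limma adjusted p = 0.00177). Uhrf1 fell in Balb/c-2 rep2 against Balb/c-2, libraries of the same tumours, by 1.69 (SE 0.40, limma adjusted p = 0.0415), a call lost with TMM scaling (adjusted p = 0.0654) and with all copies of the gene (-1.14, adjusted p = 0.33). In CBA it rose against those repeat libraries by 2.38 (SE 0.40, limma adjusted p = 0.000323). By gene sums Dnmt1 and Trim28, also listed as regulators of the H19/Igf2 domain, were lower than F0 in Balb/c-1 and Balb/c-2. Dnmt1 differed by -0.89 and -1.22 (limma adjusted p = 0.0438 and 0.00854). Trim28 differed by -0.87 and -1.38 (limma adjusted p = 0.00921 and 0.000184), where 22.1% and 27.9% of gene sums were called. Both rose in CBA against Balb/c-2 rep2, by 1.58 and 0.93 (limma adjusted p = 0.00446 and 0.025).

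In the Ras list, 18 of 36 genes hold an exon copy and 9 were tested, 3 activators, 1 Ras protein and 5 inhibitors. Rasgrp3, another exchange factor for Ras, was the only one called at the steps of the labels' order. It had 4.56, 0, 1.05, 1.91 and 3.64 in F2 and 13.4, 26.6, 11.4, 21.2 and 24.1 in N2.1, and the groups did not overlap. The rise was 2.83 on the log2 scale (SE 0.50, limma adjusted p = 0.000134). At that step 15.1% of all gene exon sums were called, 726 higher and 425 lower. In CBA against Balb/c-2 rep2, Rasgrp3 rose by 1.99 (SE 0.64, limma adjusted p = 0.0358), where 12.5% of all gene exon sums were called.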

How the data were processed

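The deposited table gives 1 signal value per repeat copy and library. The authors divided whole reads by a factor per library, as the values show: 100% lay within 0.1 of a read of a whole multiple. Per the submitters' processing notes, the build was mm10 and the tools included featureCounts 1.5.0-p3, HISAT2 2.0.5 and StringTie 1.3.3b; the sources used here do not say how reads that fit several copies were treated. Per the labels' protocols libraries were directional or non-directional.

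Copies whose mean signal reached 5 (33215 of 835636), sums of all copies inside a gene (12669) and sums of exon copies (7634) were tested with limma 3.58.1 in R 4.3.3. The test used log2(signal + 1), 1 mean per group over all 40 libraries and a trended prior; it was two-sided, p-values were adjusted by Benjamini and Hochberg's method over all features of a comparison, and features under 0.05 were called. Fold changes are on that scale, which understates the change of low copies. Genes come from GENCODE M21 by overlap with bedtools 2.31.1; tables and figures were made in Python 3.11.15. A floor is 3 reads per library and covers counting error alone. edgeR 4.0.16 and DESeq2 1.42.0 on the recovered reads were among the alternatives, and the test was checked on simulated data.

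Comparisons follow the 11 steps of the labels' order. Members and lists were chosen with earlier results of these data known, and the comparisons with F0 that skip steps were added after the values were seen. Every window copy whose mean reached 5 is described in all groups. Genes of the imprinted, IGF, Ras and neighbour lists are named when called by exon sums at the 11 steps. Of their calls by gene sums or against F0, only some are named. Letters pair only Balb/c-2 rep2 with Balb/c-2, since the titles name the same tumours. Correlations of their deviations across copies were 0.155 to 0.255 for matching letters and -0.195 to -0.0563 otherwise. The labels name sequencing batches without assigning libraries to them. The library names of Balb/c-2 rep2 and CBA, and only these, carry run and lane identifiers. Balb/c-2 rep2 against Balb/c-2 and CBA against F0 cross that difference in names, while CBA against Balb/c-2 rep2 does not. What the difference means is not stated, so batch and passage cannot be told apart.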

Additional observations from a re-analysis of the deposited data

Results flagged for a closer look

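Groups of 4 or 5 libraries were examined over the Igf2 copy, MER20, ID_B1, BC1_Mm and the Rasgrf1 sum. Of these 22 groups, 5 held a library far from the others by Dixon's criterion. For normally distributed values chance meets it in about 1 of 20 groups. The criterion was applied to signal and not to log2(signal + 1), the scale of the tests. Whether these libraries also stand apart on the log2 scale was not tested. In 3 of the 5 every other library was at 0, where any read meets the criterion, so that rate does not apply to them. Tumour E of F2 had 131 at MER20, against 28.7 to 53.7 in the other F2 tumours. Tumour A of N2.1 had 1.68 at MER20, where the other N2.1 tumours had 0, and 10.1 at ID_B1, where they had 0.752 to 3.07. Tumour B of N2.1 had 1.02 at BC1_Mm, where the others had 0. Tumour B of Balb/c-1 had a Rasgrf1 sum of 0.883, where the other Balb/c-1 tumours had 0. Apart from tumour E of F2 and the ID_B1 value, these values lie within what a count of 0 allows.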

How the results depend on the processing

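MER20 in F1 against F0 was -2.86 with no filter (limma adjusted p = 0.0623) and -2.72 with the intron share as a covariate (limma adjusted p = 0.203). ID_B1 in that comparison was -2.91 with edgeR (adjusted p = 0.0508), -2.92 with DESeq2 (adjusted p = 0.0682) and -3.61 with the covariate (limma adjusted p = 0.176), and the Rasgrf1 sum -2.92 with the covariate (limma adjusted p = 0.177). With the covariate 0 copies and 2 gene sums were called in F1 against F0, against 89 and 350 without it, and the cause was not tested. With each library left out in turn, MER20 ranged from -3.21 to -2.47, lost without tumour C of F0 (-2.64, limma adjusted p = 0.0557); ID_B1 ranged from -4.32 to -2.91 and the sum from -3.71 to -2.82, all called by limma. Calls over all copies in that comparison ranged from 10 without tumour C of F0 to 392 without tumour E of F1, and over gene sums from 27 without tumour A of F1 to 1188 without tumour E of F1. The Igf2 copy in N2.2 against F0 ranged from 3.23, no longer called, to 4.77 with libraries left out, and from 2.65 to 5.61 under the other 10 alternatives, all called. Against F0 in Balb/c-1, MER20 (-6.76 to -6.02), ID_B1 (-7.79 to -7.01) and the sum (-8.99 to -8.31) were called with every library left out and under every other alternative run. The Balb/c-1 values at or next to 0, and the N2.2 values of the Igf2 copy, were known before these comparisons with F0 were added. These calls thus lend no support of their own. With tumour letter as replicate block, F1 against F0 was -2.87 for MER20 (limma adjusted p = 0.0122), -3.56 for ID_B1 (0.0134) and -3.07 for the sum (0.0101), and the Igf2 copy in N2.2 against F0 was 4.45 (0.00802); letters are only names there, and copies called in F1 against F0 went from 89 to 205. For Balb/c-2 rep2 paired with Balb/c-2, the block over those 6 libraries left the Igf2 copy at 0.91 (limma adjusted p = 0.618) and moved the copies called from 77 to 153; TMM scaling gave 28 and edgeR 15. In N2.1 against F2, Airn reversed to 0.43 with copies wholly inside exons (limma adjusted p = 0.504), and Ube3a was not called with these copies (limma adjusted p = 0.169); the cause was not tested. Without tumour C of N2.3, called exon sums went from 558 to 192 in Balb/c-1 against N2.3, from 297 to 186 in N2.3 against N2.1 and from 4 to 2 in N2.3 against N2.2, an alternative chosen after the values were seen. Against F0, Igf1r was called in both Balb/c groups with every library left out, as was Tspan32 in Balb/c-1, while Tspan32 in N2.2 (1.91 to 2.49) and Balb/c-2 (1.31 to 2.69) lost the call in 6 of 7 such fits each. In F1 against F0, calls were also 37 copies and 107 sums with no filter, 312 and 709 with DESeq2, 60 and 215 with edgeR, and 1050 sums with the block. No filter moved the copies called from 2201 to 3658 in N2.2 against F0, from 5473 to 3196 in Balb/c-1 against F0 and from 0 to 1474 in Balb/c-2 against Balb/c-1. Copies wholly inside exons moved called exon sums from 37 to 20 in N2.2 against N2.1, from 36 to 17 in Balb/c-2 rep2 against Balb/c-2, and from 4 to 0 in N2.3 against N2.2. CBA against Balb/c-2 rep2 called 252 copies with the intron share as a covariate, against 1970. Median-of-ratios scaling left each call on the Igf2 copy, MER20, ID_B1 and the Rasgrf1 sum on its side of the threshold. A change of a copy near 0 is limited by depth, since 1 read is worth 0.659 to 1.51.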

Other observations

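Grb10, the imprinted adaptor of insulin and IGF receptors, followed a course of its own over the passages; it was singled out after its values were seen. The copies inside it summed to 6.76 to 48.4 in the cultured line, 1.02 to 55.7 in F0, 4.39 to 33.8 in F1, 24.5 to 46.4 in F2 and 15.3 to 107 in N2.1. In N2.2 the values were 3.95, 0 and 2.09, below every N2.1 tumour, and in N2.3 tumours A and B had 0 while tumour C had 43.2. All 13 libraries of Balb/c-1, Balb/c-2, Balb/c-2 rep2 and CBA were at 0. Grb10 thus still had signal in all N2.1 tumours, where the Rasgrf1 sum was 2.08 to 33.6.

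Igf2bp1, a fetal RNA-binding protein of the Igf2 message, had an exon sum that varied widely between tumours. It was 87.1 in tumour C of N2.3, the library with an Igf2 signal of 17104, and 0 in tumours A and B. In CBA it was 41.9, 54.3 and 8.21, where the Igf2 copy had 3.14, 2.17 and 5.86, and in N2.1 it ranged from 1.02 to 19.7. It too was singled out after its values were seen.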
